A study of Ovis aries with 15 samples.

Results

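The genes described here are those whose names start with PSMA, PSMB, PSMC, PSMD, PSME, PSMF or PSMG followed by a digit, in RNA-seq tables of the ruminal epithelium of sheep. The rule found 47 of the 19304 genes listed in each table. Of these, 46 are proteasome genes, 5 of them immunoproteasome genes (PSMB8, PSMB9, PSMB10, PSME1 and PSME2) and 41 constitutive ones. The last is PSMC3IP (gene15120), a recombination partner protein that is not a proteasome subunit. PSMC3IP had levels of 1.63 to 2.52 FPKM in HP, 1.16 to 2.65 in HG and 2.2 to 2.59 in CON, and it is left out of the proteasome counts below. PSMA8 and PSMB11, subunits known from testis and thymus, were not analysed here.

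The proteasome degrades proteins tagged with ubiquitin. Its 20S core is a barrel of alpha rings, which gate the entrance, and beta rings, which hold the cutting sites of PSMB5, PSMB6 and PSMB7. The 19S particle caps the barrel, and its ATPases unfold substrates while its non-ATPase subunits bind and remove ubiquitin. Under interferon, cells make PSMB8, PSMB9 and PSMB10, which take the places of PSMB5, PSMB6 and PSMB7, and the PA28 activator built from PSME1 and PSME2. The resulting immunoproteasome is best known for cutting peptides for class I antigen presentation. Stratified epithelia such as the rumen lining renew their cells throughout life, and outside the immune system the constitutive form prevails in most tissues.

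All libraries came from male Hu lambs aged 6 months, and total RNA was taken from frozen ruminal epithelium. Groups HP, HG and CON had 5 libraries each. The labels give only these letters. From the series title, HP was read as the pelleted high-grain diet, HG as the non-pelleted high-grain diet and CON as the control. The labels do not say that each library is a separate animal, so p-values measure the spread between these libraries. Values are FPKM, fragments per kilobase of transcript scaled to the mapped fragments of a library, as deposited. Read depth is unknown, so no counting interval can be given. Epithelial markers were present in every library: 12 of 15 fixed markers were in the tables, and their summed FPKM was 4641 to 6736 in HP, 5444 to 6606 in HG and 4719 to 6915 in CON. Summed smooth muscle markers ranged widely, at 171 to 3091 FPKM in HP, 196 to 5275 in HG and 185 to 1628 in CON, with endothelial markers at 65.8 to 124 in HP, 69.2 to 101 in HG and 50.2 to 77.9 in CON, and fibroblast markers 1057 to 1931 in HP, 1198 to 2029 in HG and 822 to 1317 in CON. Libraries CON1 and CON3 stood apart. Their median gene had 1.98 and 1.52 FPKM, against 2.51 to 3.19 in the other libraries, and ribosomal protein genes took 27.8% and 30.5% of their FPKM, against 16.9% to 24.0% elsewhere. These values move with the core subunits below, and their part in those results was not tested.

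All 47 genes had at least 1 FPKM in all 15 libraries, so every one was tested. The level differed widely between genes of the same particle, although the particle holds its subunits in equal numbers. Averaged over the 15 libraries, the alpha ring genes ranged from 43.6 FPKM for PSMA4 to 123 for PSMA7, and the beta ring genes from 60.5 for PSMB2 to 185 for PSMB4. The ATPases ranged from 33.1 for PSMC6 to 84.6 for PSMC3, and the non-ATPases from 13.1 for PSMD12 to 81.1 for PSMD4. PSMA4, PSMB2 and PSMD12 were the lowest of their ring or class in 15 of 15 libraries. Among the genes of assembly chaperones, PSMG4 averaged 155 FPKM and PSMD10 5.65, the highest and the lowest of that class in 15 of 15 libraries. The catalytic immunoproteasome genes were low beside the constitutive genes whose places they take. PSMB8 averaged 14.7 FPKM, PSMB9 11.97 and PSMB10 17.8, against 88.4 for PSMB5, 183 for PSMB6 and 113 for PSMB7.

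**Figure D1:**
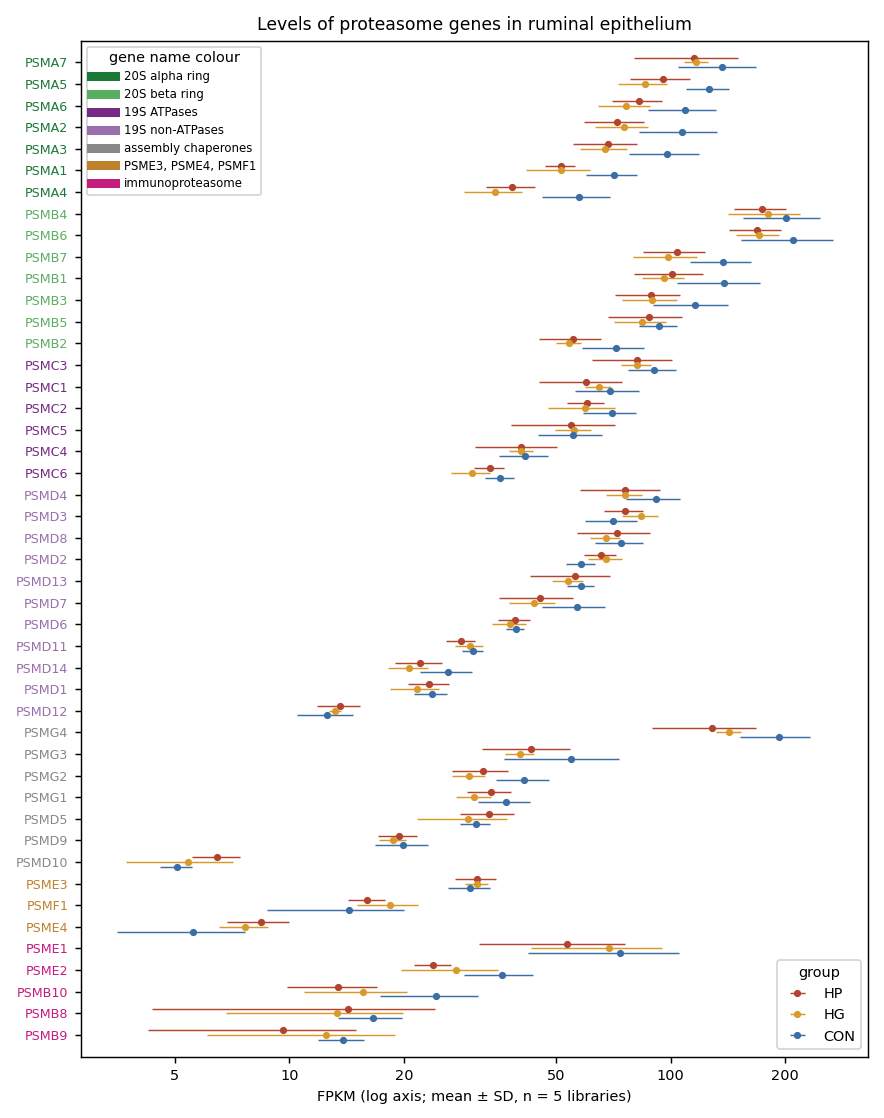
Mean FPKM of each of the 46 proteasome genes on a log axis, with the SD over 5 libraries, in HP, HG and CON. Genes are grouped by subcomplex and ordered by level, and PSMB4 and PSMB6 are the highest while PSMD10 and PSME4 are the lowest.

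The constitutive genes also differed in how much they varied within a group. The pooled within-group SD of log2(FPKM + 1) had a median of 0.25 over the alpha ring, 0.26 over the beta ring, 0.22 over the ATPases and 0.19 over the non-ATPases. PSMD11, a scaffold subunit of the 19S particle, had the smallest SD of the 46 genes at 0.11. The immunoproteasome genes had a median SD of 0.58, with 0.79 for PSME1, 0.67 for PSMB8 and 0.58 for PSMB9.

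The first comparisons asked how proteasome genes differed between each high-grain diet and the control. Genes of the 20S core averaged lower than in CON in both diets, and genes of the 19S particle lay closer to CON, but no single gene passed the adjusted threshold. Relative to the median gene the 19S genes were low too, with 17 of 17 below it in HP against CON and 15 of 17 in HG against CON. Summed over 14 core genes, FPKM was 1662, 1269.5, 1222, 1225 and 1138 in HP1 to HP5, 1189, 1194, 1165, 1289 and 1568 in HG1 to HG5 and 1798, 1303, 2148, 1443 and 1674 in CON1 to CON5. Summed over 17 genes of the 19S particle, it was 1070.1, 788, 877, 745 and 761 in HP, 817, 798, 835, 809 and 982 in HG and 958, 778, 963, 861 and 959 in CON. The core sums of HP1 and HG5 reached into the range of CON, and CON2 lay within the range of both diets. For the 19S particle the groups overlapped widely. As a percent of the summed FPKM of a library, the core genes averaged 0.272 in HP, 0.262 in HG and 0.302 in CON. On that scale the 19S genes averaged higher in both diets, at 0.177 in HP and 0.174 in HG against 0.165 in CON. Without CON1 and CON3 the CON averages were 0.291 for the core and 0.171 for the 19S particle.

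By limma on log2(FPKM + 1), with Benjamini-Hochberg adjustment over 13084 genes, 0 of 46 proteasome genes passed the adjusted threshold of 0.05 in either comparison with CON. Over all genes tested, 0.0153% passed in HP against CON and 0% in HG against CON. At an unadjusted p under 0.05, 14 proteasome genes were lower and 1 higher in HP than in CON, where 5.24% of all genes tested were lower and 22.6% higher. In HG against CON, 15 were lower and 1 higher, where 5.5% and 21.8% of all genes were. Without CON1 and CON3 the count of lower genes was 4 in each comparison, where 2.87% of all genes were lower in HP and 3.97% in HG. These 4 were PSMA1, PSMA4, PSMB10 and PSMG2 in HP and PSMA1, PSMA4, PSMA5 and PSMG2 in HG. With median-ratio scaling it was 24 in HP against CON and 23 in HG against CON, where 13.7% and 12.8% of all genes were lower. In HP against CON it was 8 without HP5, 9 without CON5, 22 without HP1 and 23 without CON2 and HP1, where 4.17%, 4.04%, 7.7% and 9.51% of all genes were lower.

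Which library was left out also decided whether genes were called. Without CON2, which lay nearest to the high-grain libraries in its core sum, 11 proteasome genes were lower and 1 higher in HP than CON by limma at an adjusted p under 0.05, and 10 were lower in HG than CON. PSMA1 to PSMA6, PSMB1 and PSMB2 were among the lower genes of both. In that fit 16.7% and 17.1% of all genes were called, in either direction. CON2 had the lowest core sum of CON, and HP1 the highest of HP. Without both CON2 and HP1, 19 were lower and 1 higher in HP than CON, and 13 lower in HG than CON. There 24.5% and 19.8% of all genes were called, in either direction. Dropping libraries that lie against the difference raises such counts by choice, so no conclusion is drawn from them. Array quality weights gave 4 lower in HG than CON (PSMA1, PSMA4, PSMA5 and PSMG2), where 6.63% of all genes were called. With the same weights 0 were called in HP against CON, where 0% of all genes were. Over all genes, the median log2 fold change was 0.18 for HP against CON and 0.17 for HG against CON, and with median-ratio scaling it was -0.01 in both. The comparisons share the CON libraries. Fold changes are given below as fitted, and the medians of gene groups also relative to these values.

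**Figure D2:**
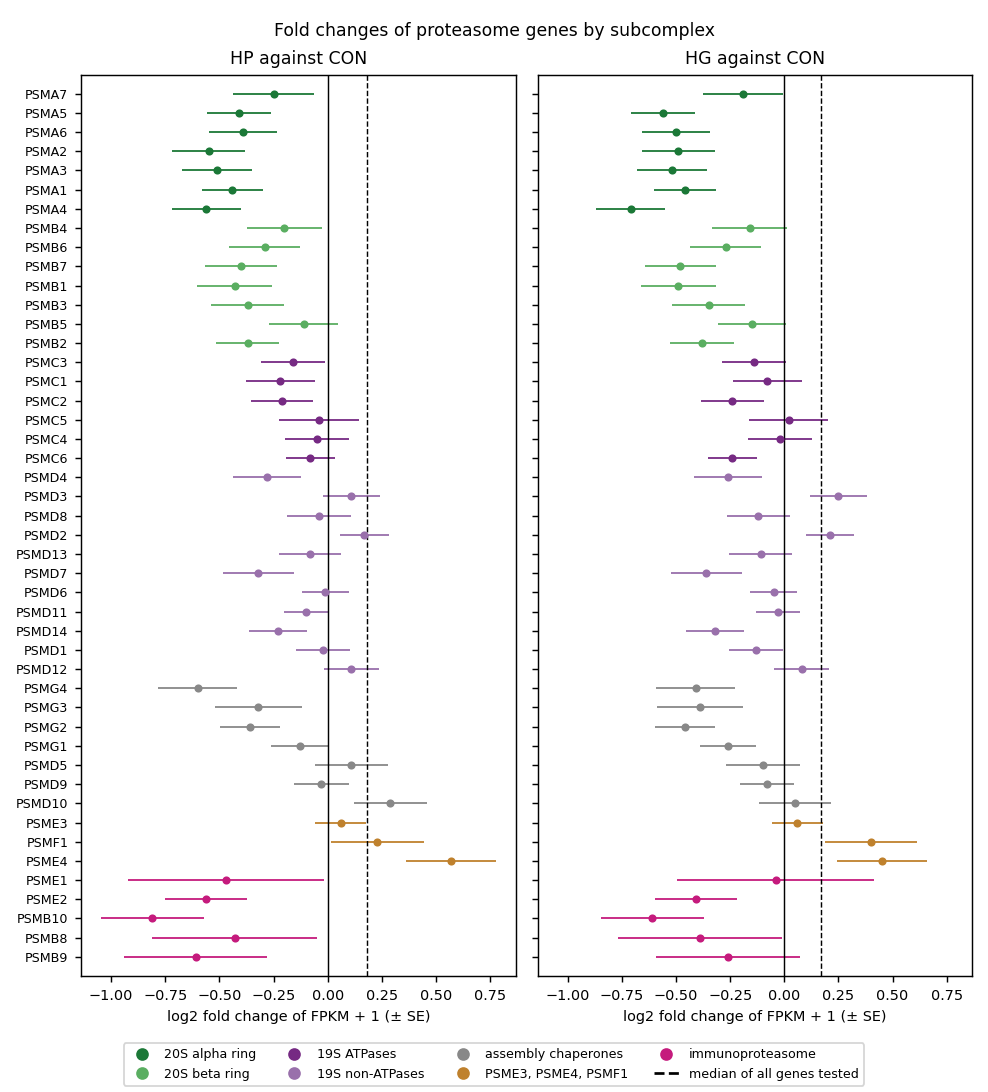
Log2 fold change of FPKM + 1 with its SE for each of the 46 proteasome genes, HP against CON on the left and HG against CON on the right, coloured by subcomplex. The 14 core genes lie left of 0 in both panels, most 19S genes lie near 0, and the dashed line marks the median of all genes tested.

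All 7 alpha ring genes measured had negative fold changes in both comparisons, also with median-ratio scaling and quantile normalization. Their median was -0.44 in HP against CON (-0.62 relative to all genes) and -0.50 in HG against CON (-0.67 relative to all genes). At an unadjusted p under 0.05, 6 of 7 were lower in HP and 6 of 7 in HG. Without CON1 and CON3 these counts were 2 and 3, and the medians relative to all genes were -0.40 and -0.41. PSMA7 was the exception at that p, with 115 ± 34.9 FPKM in HP, 117 ± 8.41 in HG and 136 ± 31.7 in CON (SD, n = 5 each).

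PSMA4 (gene21581), an alpha ring subunit, had the smallest p of the constitutive genes in both comparisons. It was at 45.5, 42.9, 37.5, 32.5 and 33.8 FPKM in HP1 to HP5, 30.3, 32.05, 30.6, 35.7 and 44.8 in HG1 to HG5 and 61.6, 40.8, 71.3, 51.6 and 63.02 in CON1 to CON5. The lowest CON library, CON2, lay inside the range of both diets, and the other 4 CON libraries lay above every HP and HG library. The log2 fold change was -0.56 ± 0.16 (SE) in HP against CON, with a limma adjusted p of 0.0991. In HG against CON it was -0.71 ± 0.16, with an adjusted p of 0.0779.

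PSMA5 (gene875) was at 112, 113, 94.2, 77.4 and 79.9 FPKM in HP, 82.7, 89.9, 69.9, 81.2 and 104 in HG and 130.4, 102, 143, 118 and 137 in CON. In HG the highest library overlapped only CON2, and in HP the 2 highest libraries lay between CON2 and CON4. The log2 fold change was -0.41 ± 0.147 in HP against CON (limma adjusted p 0.113) and -0.56 ± 0.147 in HG against CON (adjusted p 0.0779). PSMA1 (gene19240) was at 58.9, 49.1, 50.5, 52.4 and 46.5 FPKM in HP, 49.5, 42.5, 43.1, 56.6 and 65.9 in HG and 71.01, 56.5, 85.8, 65.96 and 75.3 in CON. For this gene HP1, HG4 and HG5 lay above the lowest CON library, and the fold changes were -0.44 and -0.46 in HP and HG against CON.

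PSMA2 (gene8204) was at 91.9, 76.2, 59.9, 71.9 and 61.4 FPKM in HP, 65.7, 77.8, 60.2, 85.3 and 87.3 in HG and 119, 82.2, 145, 96.7 and 94.1 in CON. PSMA3 (gene11990), another alpha ring subunit, was at 88.5, 71.5, 59.6, 67.8 and 54.7 in HP, 64.7, 65.3, 54, 75.2 and 77.9 in HG and 105, 75.8, 128, 84.7 and 96.7 in CON. For both genes CON1 and CON3 were the highest of the 15 libraries and CON2 the lowest of its group. The log2 fold change of PSMA2 was -0.55 in HP and -0.49 in HG against CON, and that of PSMA3 was -0.51 in HP and -0.52 in HG. PSMA6, the remaining alpha gene, had 82.5 ± 12.4 FPKM in HP, 76.4 ± 12.05 in HG and 109 ± 22.1 in CON.

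The 7 beta ring genes also had negative fold changes in both comparisons (with quantile normalization 2 were positive in HP and 1 in HG), with a median of -0.37 in HP against CON (-0.54 relative to all genes) and -0.35 in HG against CON (-0.52). At an unadjusted p under 0.05, 4 of 7 were lower in HP (PSMB1, PSMB2, PSMB3 and PSMB7) and 3 of 7 in HG (PSMB1, PSMB2 and PSMB7). Without CON1 and CON3 the counts were 0 and 0, and the medians relative to all genes were -0.22 and -0.21. Of the catalytic subunits, PSMB7 (gene5208), with the trypsin-like site, was at 134, 107, 102, 90.04 and 84.8 FPKM in HP, 94.96, 92.1, 79.9, 95.6 and 130.3 in HG and 146, 105, 170.3, 123 and 143 in CON. All but 1 library of each diet lay below 4 of the 5 CON libraries, and the fold changes were -0.40 and -0.48 in HP and HG against CON.

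PSMB5 (gene11379), with the chymotrypsin-like site, was at 103, 67.8, 101, 101 and 65.2 FPKM in HP, 74.6, 71.8, 104, 80.9 and 90 in HG and 97.97, 96.03, 108, 81.7 and 83.7 in CON. Its groups overlapped throughout, and its fold changes, -0.11 in HP and -0.15 in HG against CON, were the smallest of the core. PSMB6 (gene14608), with the caspase-like site, was at 212, 148, 153, 174 and 157 FPKM in HP, 157, 156, 170.2, 161 and 208 in HG and 211, 166, 306, 174 and 192 in CON. CON3 stood far above the rest for this gene, and the fold changes were -0.29 in HP and -0.27 in HG against CON. PSMB4, a beta subunit with no cutting site, had 174 ± 27.1 FPKM in HP, 180.0 ± 38.5 in HG and 201 ± 45.8 in CON. PSMB1, PSMB2 and PSMB3, which complete the beta ring and also have no cutting site, had mean levels of 55.4 to 101 FPKM in HP, 54.2 to 96.3 in HG and 71.9 to 138 in CON, with fold changes of -0.43 to -0.37 in HP and -0.49 to -0.35 in HG against CON.

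The 19S particle differed less. Its 6 ATPase genes had a median fold change of -0.12 in HP against CON (-0.30 relative to all genes) and -0.11 in HG against CON (-0.28). None of the 6 had an unadjusted p under 0.05 by limma in either comparison, and the smallest adjusted p was 0.353 in HP and 0.185 in HG. With median-ratio scaling 2 were lower at that p in HP (PSMC1 and PSMC2) and 2 in HG (PSMC2 and PSMC6). PSMC5 had 54.8 ± 16.6 FPKM in HP, 55.8 ± 6.11 in HG and 55.4 ± 10.6 in CON. PSMC6 (gene11210) was at 34.5, 37.8, 30.9, 34.4 and 30.4 FPKM in HP, 29.2, 29.3, 25.01, 33.7 and 33.2 in HG and 34.7, 30.97, 38.2, 35.6 and 38.8 in CON, with all groups overlapping. The other ATPase genes, PSMC1, PSMC2, PSMC3 and PSMC4, had fold changes of -0.22 to -0.05 in HP and -0.24 to -0.02 in HG against CON.

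The 11 non-ATPase genes had a median fold change of -0.04 in HP against CON (-0.22 relative to all genes) and -0.11 in HG against CON (-0.28). At an unadjusted p under 0.05, 0 of 11 were lower in HP and 2 of 11 in HG, PSMD7 and PSMD14, which form the enzyme pair that cuts ubiquitin from substrates. With median-ratio scaling 4 were lower at that p in HP (PSMD4, PSMD7, PSMD11 and PSMD14) and 4 in HG (PSMD1, PSMD4, PSMD7 and PSMD14). PSMD14 had 22.02 ± 3.09 FPKM in HP, 20.6 ± 2.52 in HG and 26.1 ± 4.06 in CON, and PSMD7 had 45.5 ± 9.99 FPKM in HP, 43.7 ± 6.1 in HG and 56.7 ± 10.7 in CON. The 3 genes with positive fold changes in both comparisons were PSMD2, PSMD3 and PSMD12. PSMD2, the large scaffold and ubiquitin-binding subunit, had 65.6 ± 6.17 FPKM in HP, 67.7 ± 7.04 in HG and 58.3 ± 5.23 in CON. PSMD3 (gene15016) was at 81.3, 70.8, 84.9, 62.95 and 79.3 FPKM in HP, 84.8, 78.5, 80.97, 75.6 and 98.5 in HG and 78.3, 77.04, 52.5, 77.5 and 67.8 in CON, where CON3 was the lowest of the 15 libraries. The ubiquitin receptor PSMD4 had 75.9 ± 18.1 FPKM in HP, 75.9 ± 8.14 in HG and 91.4 ± 14.8 in CON. The other non-ATPase genes, PSMD1, PSMD6, PSMD8, PSMD11 and PSMD13, which build the scaffold and lid of the particle, had fold changes of -0.10 to -0.01 in HP and -0.13 to -0.03 in HG against CON. With median-ratio scaling 1 non-ATPase gene had a positive fold change in HG against CON and 0 in HP against CON.

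The core and the 19S particle can be set against each other within a library, where library scaling cancels. This measure was chosen after the values were seen, and it is given with no test. The mean log2 FPKM of the 14 core genes exceeded that of the 17 genes of the 19S particle by 1.00, 1.00, 0.81, 1.00 and 0.88 in HP1 to HP5, by 0.85, 0.92, 0.79, 1.00 and 0.99 in HG1 to HG5 and by 1.31, 1.08, 1.54, 1.09 and 1.14 in CON1 to CON5. All 10 high-grain libraries lay below all 5 CON libraries, and the highest values were those of CON1 and CON3. The other 3 CON libraries, at 1.08, 1.09 and 1.14, also lay above the high-grain libraries. With medians over genes in place of means, the values were 0.68, 1.11, 0.63, 0.70 and 0.84 in HP, 0.66, 0.74, 0.51, 0.77 and 0.68 in HG and 1.08, 1.10, 1.46, 0.98 and 0.88 in CON, and HP2 lay inside the range of CON.

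**Figure D3:**
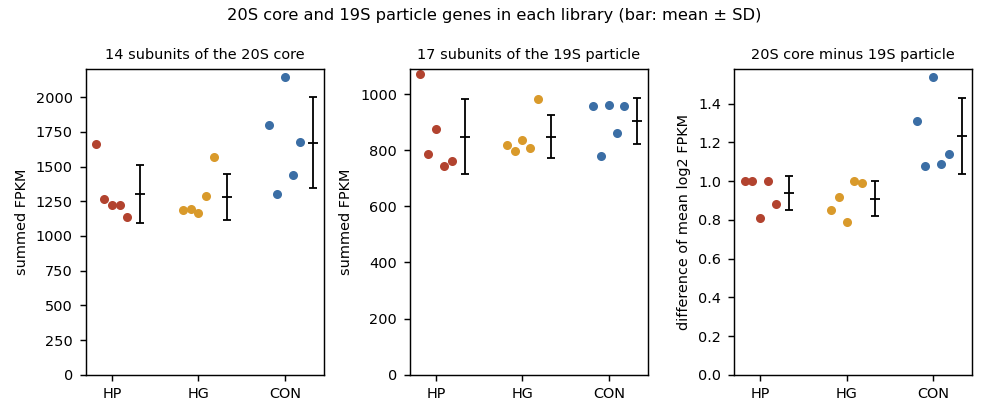
Summed FPKM of the 14 genes of the 20S core and of the 17 genes of the 19S particle, and the difference of their mean log2 FPKM, for each library of HP, HG and CON, with group mean and SD. In the right panel the high-grain libraries lie between 0.79 and 1.00 and the CON libraries between 1.08 and 1.54.

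Assembly chaperones build the core and the 19S base before the particles join. Their 7 genes had a median fold change of -0.13 in HP against CON (-0.30 relative to all genes) and -0.26 in HG against CON (-0.43). At an unadjusted p under 0.05, 2 of 7 were lower in each, PSMG2 and PSMG4, and both belong to the chaperones of the core. PSMG4 (gene29005) was at 193, 102, 100.1, 140.5 and 107 FPKM in HP, 147, 156, 127, 139.6 and 142 in HG and 231, 151, 236, 156 and 189 in CON. In HP only HP1 exceeded the lowest CON library, and in HG only HG2 did, and the fold change was -0.60 ± 0.184 in HP against CON (limma adjusted p 0.0991) and -0.41 ± 0.184 in HG against CON (adjusted p 0.166).

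PSMG2 (gene25320), which pairs with PSMG1, was at 39.6, 34.8, 30.4, 30.5 and 25.4 FPKM in HP, 27.98, 28.1, 27.04, 31.2 and 34.1 in HG and 35.2, 33.6, 43.5, 46.8 and 47.8 in CON. Only HG5 exceeded the lowest CON library in HG, and HP1 and HP2 did in HP, and the fold changes were -0.36 in HP and -0.46 in HG against CON. PSMD5 (gene2848), a chaperone of the 19S base, was at 26.5, 38.1, 37.2, 36.7 and 28.9 FPKM in HP, 31.5, 20.1, 22.7, 34.8 and 38.1 in HG and 30.8, 32.3, 26.3, 31.2 and 33.5 in CON. PSMD10 (gene28252), also known as gankyrin, was at 7.38, 5.3, 7.08, 6.95 and 5.63 in HP, 3.51, 5.89, 5.35, 4.38 and 7.95 in HG and 4.37, 5.62, 4.9, 5.02 and 5.43 in CON. Neither of these base chaperones had an unadjusted p under 0.05 against CON by limma. The other chaperone genes, PSMG1 and PSMG3 for the core and PSMD9 for the base, had fold changes of -0.32 to -0.03 in HP and -0.39 to -0.08 in HG against CON.

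Of the remaining constitutive genes, PSME4 averaged higher than in CON. It encodes PA200, an activator that opens the core without ATP, and it had 6.85, 8.77, 10.9, 7.48 and 8.11 FPKM in HP, 8.86, 8.31, 7.81, 7.49 and 5.87 in HG and 4.4, 7.94, 2.77, 7.1 and 5.75 in CON. It was the only proteasome gene higher at an unadjusted p under 0.05, with a fold change of 0.57 ± 0.207 in HP against CON (limma adjusted p 0.115) and 0.45 ± 0.207 in HG against CON (adjusted p 0.176). In HG against CON it was not higher at that p in several alternatives. Among them were median-ratio scaling, quantile normalization, array quality weights and the replicate number as a block. The same held without CON1, CON3, CON5 or HP5, and leaving out 1 library gave 0 to 2 higher genes. PSMF1 was the other one without CON2 and without CON4, and quantile normalization added PSMD2 in HP and PSMD3 in HG. The lowest values of PSME4 were in CON3 and CON1, and without both no proteasome gene was higher at that p, where 6.39% of all genes were in HP and 7.82% in HG against CON. PSMF1, an inhibitor of the core, had 16.03 ± 1.77 FPKM in HP, 18.4 ± 3.34 in HG and 14.3 ± 5.61 in CON. PSME3, the nuclear activator PA28 gamma, had 31.02 ± 3.75 FPKM in HP, 31.1 ± 2.21 in HG and 29.8 ± 3.8 in CON.

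The immunoproteasome genes had a median fold change of -0.56 in HP against CON (-0.74 relative to all genes) and -0.39 in HG against CON (-0.56). At an unadjusted p under 0.05, 2 of 5 were lower in each comparison, PSMB10 and PSME2, and none passed the adjusted threshold. Without CON1 and CON3 the counts were 1 in HP and 0 in HG, with medians relative to all genes of -0.51 and -0.35. In these whole-tissue samples, fewer cells of a type and less RNA per cell cannot be told apart.

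PSMB10 (gene17876), which replaces PSMB7, was at 17.2, 7.97, 12.1, 15.2 and 14.6 FPKM in HP1 to HP5, 9.58, 19.6, 13.4, 14.5 and 21.1 in HG1 to HG5 and 27.8, 21.9, 34.5, 16.6 and 20.6 in CON1 to CON5. All HP libraries but HP1 lay below all CON libraries, and in HG the libraries HG2 and HG5 lay within the range of CON. The fold change was -0.81 ± 0.239 (SE) in HP against CON, with a limma adjusted p of 0.0991, and -0.61 ± 0.239 in HG against CON, with an adjusted p of 0.125. PSME2 (gene11341), the beta subunit of PA28, was at 25.06, 25.71, 22.34, 26.19 and 19.87 FPKM in HP, 17.5, 37.3, 23.1, 32.97 and 26.3 in HG and 43.70, 26.23, 36.74, 42.56 and 31.32 in CON. HP4, the highest HP library, lay just under CON2, the lowest CON library, and the HG libraries lay on both sides of it. PSME2 was the only one of 46 proteasome genes whose HP libraries all lay below all CON libraries, where 0.825% of all genes tested did. In HG against CON none was, where 1.13% of all genes were. No proteasome gene was above every CON library in all libraries of HP or of HG, where 2.69% and 4.44% of all genes were. The fold change of PSME2 was -0.56 ± 0.189 in HP against CON (limma adjusted p 0.105) and -0.41 ± 0.189 in HG against CON (adjusted p 0.179).

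PSMB8 (gene22778), which replaces PSMB5, was at 21.8, 7.73, 7.87, 27.6 and 5.97 FPKM in HP, 7.35, 21.2, 9.38, 19.7 and 9.19 in HG and 17.04, 11.8, 19.2, 19.4 and 15.3 in CON. PSMB9 (gene22780), which replaces PSMB6, was at 16.9, 6.29, 5.93, 13.7 and 5.18 FPKM in HP, 6.003, 20.6, 8.28, 18.1 and 9.59 in HG and 15.5, 10.8, 15.3, 13.6 and 13.8 in CON. For both genes HP1, HP4, HG2 and HG4 lay within or above the range of CON, and the other 6 high-grain libraries lay below every CON library. The groups therefore overlapped, and the SD of PSMB8 was 9.85 in HP and 6.54 in HG, against 3.14 in CON. The fold change of PSMB8 was -0.43 ± 0.38 in HP and -0.39 ± 0.38 in HG against CON, and that of PSMB9 was -0.61 ± 0.331 in HP and -0.26 ± 0.331 in HG. None of these had an unadjusted p under 0.05 by limma. With 1 library left out, PSMB8 lay between -0.72 (without HP4) and -0.21 (without HP5) in HP, and between -0.57 (without HG2) and -0.22 (without HG1) in HG against CON. PSMB9 in HG against CON lay between -0.46 (without HG2) and -0.05 (without HG1).

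PSME1 (gene11343), the alpha subunit of PA28, was at 66.6, 66.5, 65.9, 54.3 and 14.98 FPKM in HP, 52.7, 91.6, 77.7, 91.2 and 32.1 in HG and 102, 60.1, 96.2, 25.1 and 85.6 in CON. HP5, HG5 and CON4 were the lowest of their groups. HP5 and HG5 were not among the 4 high-grain libraries high in PSMB8. CON4 had the highest PSMB8 of CON, at 19.4 FPKM, just above CON3 at 19.2. The fold change was -0.47 ± 0.454 in HP and -0.04 ± 0.454 in HG against CON, and in HG it was 0.34 without CON1 and CON3. In HP it was -0.07 without HP5, -0.09 without CON1 and CON3 and -0.81 without CON4. The span of PSME1 overlaps that of EMC9 in the RefSeq assembly ARS-UI_Ramb_v3.0, and the sources used here do not state whether reads were counted by strand, so reads of both genes may be mixed. The same holds for PSMA3 with ARMH4, PSMB6 with C11H17orf114, PSMC1 with NRDE2, PSMD1 with HTR2B, PSMD6 with ATXN7, PSMD10 with ATG4A and PSME3 with AOC2.

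**Figure D4:**
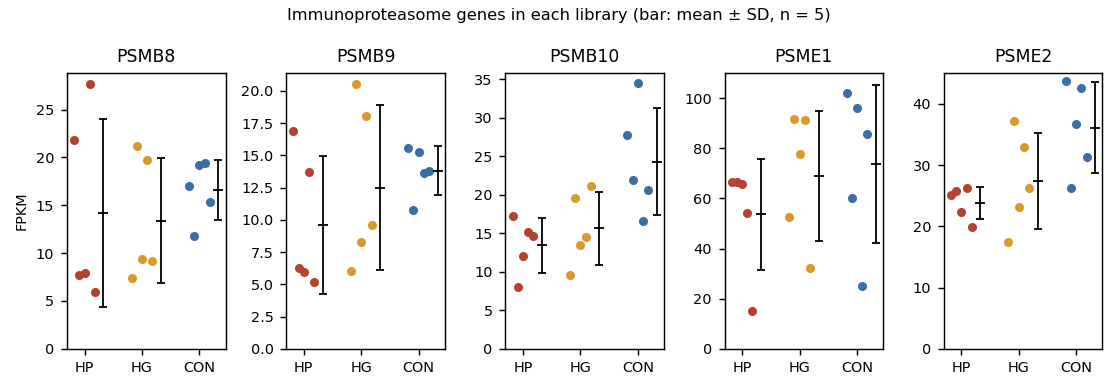
FPKM of the 5 immunoproteasome genes in each library of HP, HG and CON, with group mean and SD. PSMB8 and PSMB9 fall into a high and a low set of libraries within both HP and HG, while PSMB10 and PSME2 lie lower in HP than in most CON libraries.

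Each catalytic immunoproteasome gene was also set against the constitutive gene whose place it takes, as a ratio within a library. PSMB8 was 21.2, 11.4, 7.79, 27.3 and 9.15 percent of PSMB5 in HP1 to HP5, 9.86, 29.5, 9.05, 24.4 and 10.2 percent in HG1 to HG5 and 17.4, 12.3, 17.9, 23.7 and 18.3 percent in CON1 to CON5. PSMB9 was 7.95, 4.25, 3.86, 7.88 and 3.3 percent of PSMB6 in HP, 3.82, 13.2, 4.87, 11.2 and 4.6 percent in HG and 7.37, 6.5, 4.99, 7.84 and 7.18 percent in CON. PSMB10 was 12.8, 7.44, 11.8, 16.8 and 17.3 percent of PSMB7 in HP, 10.1, 21.3, 16.8, 15.1 and 16.2 percent in HG and 19.1, 20.9, 20.2, 13.5 and 14.4 percent in CON. All 3 ratios overlapped between groups. Of the 9 exact two-sided permutation tests of the log2 ratios, over 252 assignments each, the smallest unadjusted p was 0.119, for PSMB10 to PSMB7 in HP against CON, with a difference of -0.45 and an adjusted p of 0.633. The smallest p the design allows is 0.00794. For PSMB8 to PSMB5 the difference was -0.36 in HP and -0.27 in HG against CON (exact permutation p 0.365 and 0.484). With 1 library left out it was -0.61 (without HP4) to -0.16 (without HP3) in HP and -0.52 (without HG2) to -0.10 (without HG3) in HG, and PSMB10 to PSMB7 in HP was -0.56 (without HP5) to -0.26 (without HP2).

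**Figure D5:**
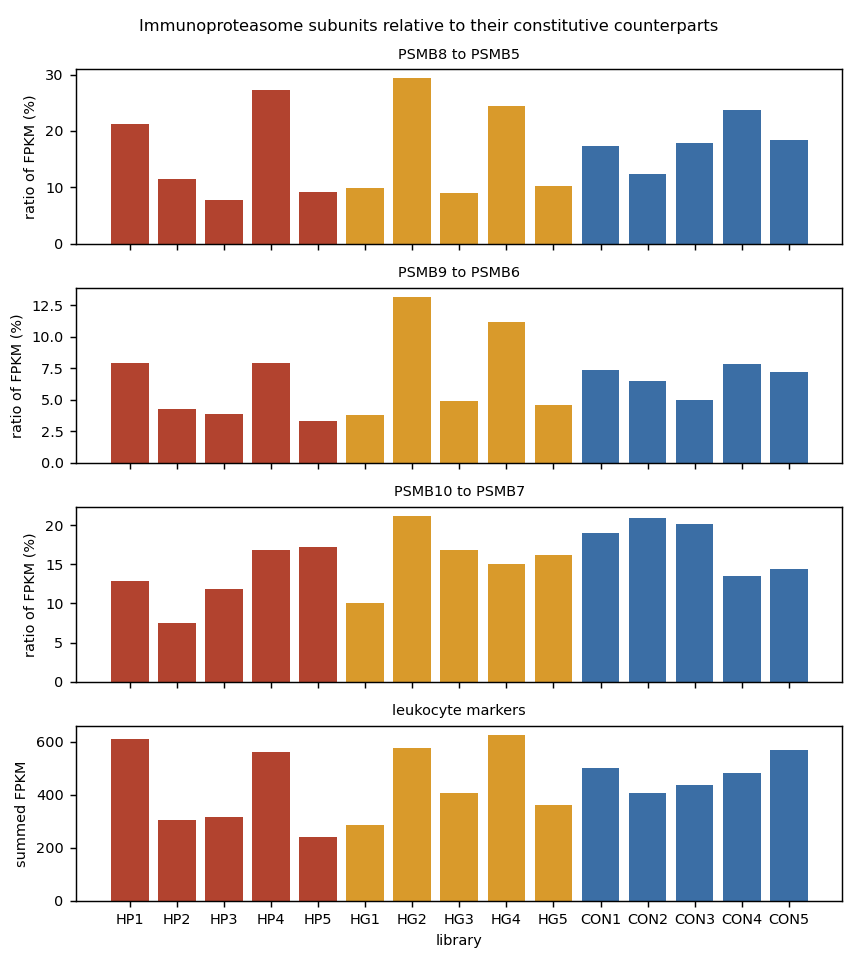
Ratio of FPKM, in percent, of PSMB8 to PSMB5, PSMB9 to PSMB6 and PSMB10 to PSMB7, and summed FPKM of leukocyte markers, for each of the 15 libraries. HP1, HP4, HG2 and HG4 are high within their groups in PSMB8, PSMB9 and summed leukocyte markers, and the ratio of PSMB10 to PSMB7 is highest in HP5 and HG2.

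Leukocytes express immunoproteasome genes at high levels. Within HP and within HG the summed FPKM of their markers was high in the same libraries as PSMB8 and PSMB9. Of 22 fixed leukocyte markers 19 were in the tables, and their summed FPKM was 609, 303, 315, 562 and 241 in HP1 to HP5, 285, 575, 406, 627 and 361 in HG1 to HG5 and 501, 406, 436, 483 and 568 in CON1 to CON5. HP1, HP4, HG2 and HG4 were the highest of their groups, as for PSMB8 and PSMB9. The same 4 libraries were the highest of their groups without CD74, the most abundant marker, which interferon also induces, at 236, 215, 304 and 259.5 FPKM. In all 4, most of the sum without CD74 came from C1QA, C1QB and C1QC. These were at 48.7, 55.7 and 66.4 FPKM in HP1 and 37.2, 45.4 and 55.2 in HP4. In HG2 they were at 67.2, 91.1 and 82.8 FPKM, and in HG4 at 56.2, 68.4 and 68.4. PTPRC, the pan-leukocyte gene CD45, was 6.56, 5.74, 5.62, 11.03 and 3.7 FPKM in HP, 3.7, 8.64, 6.17, 9.36 and 4.91 in HG and 3.002, 6.17, 3.08, 7.43 and 7.82 in CON. Not every marker ranked as the sum did. The T cell marker CD3E was 6.43, 3.57, 2.62, 10.6 and 2.71 FPKM in HP and 2.75, 3.82, 4.52, 6.3 and 3.83 in HG, where HG2 lay below HG3 and HG5. CD4 in HG2 lay below HG3, and NKG7 in HP1 lay below HP3. Of the leukocyte markers 14 were tested by limma. At an unadjusted p under 0.05, 3 were lower (C1QA, C1QB and C1QC) and 1 higher (CSF1R) in HP against CON. In HG against CON 0 were lower and 1 higher (CSF1R). Of all genes, 5.24% and 22.6% were lower and higher in HP, and 5.5% and 21.8% in HG. The B cell marker MS4A1 was under 1 FPKM in all libraries. In CON the leukocyte markers did not rank as PSMB8 and PSMB9 did. CON5 had the highest leukocyte sum but the 2nd lowest PSMB8. CON1 and CON3, with the lowest PTPRC of all 15 libraries, had the highest PSMB9 of their group. The part of leukocytes in the values of PSMB8 and PSMB9 was not tested.

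Class I antigen processing uses the peptides the immunoproteasome makes. Of 21 fixed genes of this pathway, all tested, 3 were higher and 1 lower in HP than CON at an unadjusted p under 0.05, and 4 higher and 0 lower in HG than CON, against 22.6% higher and 5.24% lower of all genes in HP and 21.8% and 5.5% in HG. With median-ratio scaling these counts were 3 higher and 6 lower in HP, and 1 higher and 4 lower in HG. There 13.7% and 12.8% of all genes were lower in HP and HG, and the share higher is not given here. Without CON1 and CON3 these counts were 2 higher and 3 lower in HP, and 0 higher and 1 lower in HG. Of all genes, 6.39% were then higher and 2.87% lower in HP, and 7.82% and 3.97% in HG. Their median fold change relative to all genes was -0.22 in HP and -0.08 in HG against CON. B2M, the light chain of class I molecules, was the 1 gene lower in HP than CON at that p and was named after its values were seen. It was at 509.7, 588, 413, 851 and 328 FPKM in HP, 303, 1324, 478, 1666 and 623 in HG and 923, 1369, 838, 1692 and 985 in CON, with fold changes of -1.13 ± 0.401 in HP against CON (limma adjusted p 0.111) and -0.63 ± 0.401 in HG against CON (adjusted p 0.313). HP4, HG2 and HG4 were the high-grain libraries within the range of CON. TPP2, a cytosolic peptidase that trims proteasome products, was at 8.19, 10.9, 9.91, 11.1 and 9.43 FPKM in HP, 8.29, 10.4, 10, 8.05 and 7.65 in HG and 5.47, 7.65, 4.45, 7.47 and 7.02 in CON. It lay above every CON library in HP, where 2.69% of all genes tested did, with fold changes of 0.57 in HP and 0.43 in HG against CON. JAK1, a kinase of interferon receptors, had 24.3 ± 3.91 FPKM in HP, 22.2 ± 2.25 in HG and 15.5 ± 4.98 in CON. JAK2, another such kinase, had 4.66 ± 1.05 FPKM in HP, 5.09 ± 0.853 in HG and 3.38 ± 1.15 in CON. ERAP2, a peptidase that trims antigens in the endoplasmic reticulum, had 2.78 ± 0.788 FPKM in HP, 1.99 ± 0.501 in HG and 1.37 ± 0.823 in CON. TAP1, which carries peptides into the endoplasmic reticulum and lies between PSMB8 and PSMB9 in RefSeq, was named after its values were seen. It was at 12.1, 6.16, 7.37, 10.6 and 5.95 FPKM in HP, 5.84, 16.7, 10.1, 18.05 and 8.07 in HG and 8.37, 14.2, 5.07, 15.4 and 11.2 in CON, and HP1, HP4, HG2 and HG4 were again the highest of their groups.

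Other genes that work with the proteasome were called in both directions, the higher calls at a share near that of all genes. Of 41 fixed genes 37 were in the tables and tested, and at an unadjusted p under 0.05, 9 were higher and 3 lower in HP than CON, and 9 higher and 5 lower in HG than CON, against 22.6% higher and 5.24% lower of all genes in HP and 21.8% and 5.5% in HG. With median-ratio scaling these counts were 3 higher and 10 lower in HP, and 4 higher and 7 lower in HG. There 13.7% and 12.8% of all genes were lower in HP and HG, and the share higher is not given here. Without CON1 and CON3 these counts were 2 higher and 1 lower in HP, and 1 higher and 3 lower in HG. Of all genes, 6.39% were then higher and 2.87% lower in HP, and 7.82% and 3.97% in HG. Their median fold change relative to all genes was -0.04 in HP and -0.06 in HG. POMP, the maturation factor that completes the core, was at 121, 118, 101, 107 and 94.8 FPKM in HP, 106, 92.6, 81.9, 113 and 128 in HG and 164, 108, 165, 144 and 159 in CON. CON2 was its lowest CON library, with fold changes of -0.44 ± 0.147 and -0.50 ± 0.147 in HP and HG against CON (limma adjusted p 0.105 and 0.0804). SKP1, an adaptor of ubiquitin ligases, was at 73.2, 75.8, 60.2, 68.1 and 81.6 in HP, 67.02, 66.3, 61.9, 74.02 and 79.1 in HG and 106, 81.9, 126, 91.1 and 107 in CON. All 10 high-grain libraries were lower than the lowest CON library, with fold changes of -0.50 and -0.54 in HP and HG against CON (limma adjusted p 0.0991 and 0.0779). Of all genes tested, 0.825% lay below every CON library in HP and 1.13% in HG.

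NFE2L1, known in mouse and human cells as the transcription factor that raises proteasome genes when proteasomes are inhibited, was at 27.3, 20.6, 26.6, 30.6 and 28.2 FPKM in HP, 30.8, 29.2, 41.3, 28.8 and 34.3 in HG and 19.9, 21.1, 17.4, 26.4 and 20.8 in CON. Every HG library lay above every CON library, while HP overlapped CON, with fold changes of 0.32 ± 0.141 in HP against CON (limma adjusted p 0.156) and 0.61 ± 0.141 in HG against CON (adjusted p 0.0779). KEAP1 and UBA1 of the same list also lay above every CON library in HG, where 4.44% of all genes tested did. The ubiquitin ligase genes HUWE1 and UBE3C also averaged higher than in CON. HUWE1 had 20.6 ± 2.73 FPKM in HP, 19.02 ± 2.13 in HG and 13.1 ± 4.68 in CON, and UBE3C had 17.5 ± 2.05 FPKM in HP, 15.6 ± 2.003 in HG and 10.7 ± 4.45 in CON. For both, CON1 and CON3 were the lowest of the 15 libraries.

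The last comparison asked whether pelleting changed proteasome genes within high-grain feeding. No proteasome gene differed between HP and HG at the thresholds used, in a model that took its spread from all 3 groups, CON included. By limma 0 of 46 passed the adjusted threshold, where 0% of all genes did, and 0 were higher or lower at an unadjusted p under 0.05, where 1.09% and 1.02% of all genes were. Without HP1, PSMG4 was lower at that p, where 2.29% of all genes were, and without HG5, PSMD10 was higher, where 1.31% of all genes were. Nor were the libraries of HP and HG separated for any of them, where 0.252% of all genes were separated upwards and 0.199% downwards. The median fold change of HP against HG was 0.03 over the 41 constitutive genes and -0.20 over the 5 immunoproteasome genes, against 0.01 over all genes. The 5 immunoproteasome genes all had negative fold changes, and without HP5 1 of them was positive. They ran from -0.43 ± 0.454 (SE) for PSME1 and -0.36 ± 0.331 for PSMB9 to -0.04 ± 0.38 for PSMB8. These SEs are too wide to show that the groups are alike. The constitutive genes with the smallest p were PSMD10 (0.25, unadjusted limma p 0.157), PSMC6 (0.16, p 0.185), PSMD5 (0.21, p 0.245) and PSMD3 (-0.14, p 0.303), whose values per library stand above. Among the pathway genes, 0 of 37 and 0 of 21 had an unadjusted p under 0.05. NFE2L1 came nearest, with a fold change of -0.29 and an unadjusted limma p of 0.0556. The fold changes of HP against HG were 0.20 for NFE2L2, the transcription factor NRF2, -0.23 for TAPBPL, a peptide editor of class I molecules, and 0.33 for ERAP2.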

How the data were processed

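RNA-seq of ruminal epithelium from 15 libraries was analysed (HP, HG and CON, 5 each). The authors deposited 1 table of FPKM per library, per the file headers. The submitters' processing notes list StringTie 1.3.4d and HISAT2 without saying what each did. The genome build, annotation, strand setting and HISAT2 version were not given in the sources used here. Whole reads could not be recovered from low FPKM values, so depth is unknown and no count test was run.

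The 13084 genes that reached 1 FPKM in 5 or more libraries were tested with limma 3.58.1 in R 4.3.3 on log2(FPKM + 1) (mean trend; robust variance, statmod 1.5.0), which understates folds of low genes, in 1 model of 3 groups. P-values were adjusted by Benjamini-Hochberg over all genes tested at a threshold of 0.05, and the fit was tested on simulated data. Ratios were tested by exact permutation with adjustment over 9 tests. Members, lists and alternatives were chosen with earlier results of these data known. Genes given per library were the immunoproteasome genes, PSMB5, PSMB6, PSMB7 and, per comparison, the 4 other members with the smallest p; from each pathway list the 3 with the smallest p were named, apart from some not reported here. PSME4, TAP1, B2M and some genes given as mean ± SD were added after their values were seen. No 2 tables were identical. Sequences were not used here.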

Additional observations from a re-analysis of the deposited data

Results flagged for a closer look

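Among 19 proteasome genes and 3 ratios, 66 groups of 5 libraries were checked for a library far from the rest, and 2 were found, where chance gives about 1 in 20. PSME1 in HP5 was 14.98 FPKM, against 54.3 to 66.6 in the other HP libraries. PSMB6 in HG5 was 208 FPKM, against 156 to 170.2 in the other HG libraries.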

How the results depend on the processing

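The count of proteasome genes called by limma was 0 in each comparison. In HG against CON it was 4 with array quality weights, 13 without CON2 and HP1, and 0 to 10 with 1 library left out, the highest without CON2. In HP against CON it was 20 without CON2 and HP1 and 0 to 12 with 1 library left out, the highest without CON2. The labels share replicate numbers, but 3 of 15 same-numbered pairs of libraries had a correlation of deviations over 0.1 (-0.20 to 0.29), and 4 of 15 libraries correlated best with their own number. With the replicate number as a block the counts were 0 in all 3 comparisons, and 13 and 13 proteasome genes were lower at an unadjusted p under 0.05 in HP and HG against CON. The share of all genes lower with that block is not given here.

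The fold change of PSME1 in HG against CON, -0.04, turned to 0.03 under quantile normalization, 0.13 with array quality weights, 0.34 without CON1 and CON3, and lay between -0.39 and 0.20 with 1 library left out. The difference of the log2 ratio of PSMB9 to PSMB6 in HG against CON, -0.02, was 0.01 with a pseudocount of 1 and -0.27 to 0.18 with 1 library left out. That of PSMB8 to PSMB5 in HP against HG, -0.10, was -0.35 to 0.16. The causes were not tested. The median of constitutive genes relative to all genes kept its sign against CON under all 25 alternatives, moving most to -0.13 (HP, quantile normalization) and -0.16 (HG, without CON1 and CON3). Depth is unknown, so what it limits cannot be given.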
